A study of Brassica napus with 74 samples.

Results

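Plant cell walls are built from cellulose and from matrix polysaccharides, chiefly hemicelluloses such as xylan and the acidic pectins, whose backbones and side chains are assembled by glycosyltransferases from nucleotide sugars and are then decorated with methyl and acetyl groups. In the seed, the seed coat deposits walls and pectin-rich mucilage, while the endosperm starts as a syncytium that forms its first walls when it cellularizes. The enzymes that make these polymers therefore belong to different tissues and stages of the same seed.

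Described here are 8 genes of *Brassica napus*, the 4 homoeologous pairs that the study named for wall polysaccharide synthesis, out of 101040 genes in the table. *B. napus* is an allotetraploid, so each pair has a copy in the An and a copy in the Cn subgenome. *RGP2* is present as BnaA10g18590D on chromosome A10 and BnaC09g42220D on C09, and *TBL42* as BnaAnng29680D, on an unplaced A sequence, and BnaC06g20340D on C06. *GATL5* is present as BnaA09g51210D on A09 and BnaC08g46020D on C08, and *GXM3* as BnaA09g23510D on A09 and BnaC06g07780D on C06. The study chose the first 3 pairs for their pattern in the endosperm and embryo and *GXM3* for its pattern in the seed coat of these same libraries, so the p-values below are not independent evidence that the pairs are confined to those tissues.

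All plants were of the cultivar Topas, with no treatment or genotype contrast, and ovules or seeds were taken at 4 stages, the ovule (ov, day 0 after pollination), globular (g, day 7), heart (h, day 10), and mature green (mg, day 28) stages. Tissue was fixed, embedded, sectioned, and cut out by laser microdissection, and each library held RNA pooled from sections of at least 12 plants. The 44 maternal libraries came from 16 subregions, the chalazal proliferating tissue (CPT), the chalazal seed coat (CZSC), the inner seed coat (ISC), and the outer seed coat (OSC) at each stage. The 30 filial libraries came from 10 subregions, the embryo proper (EP), micropylar endosperm (MCE), peripheral endosperm (PEN), and chalazal endosperm (CZE) at the globular and heart stages, and the cotyledons (COT) and embryonic root (ROOT) at the mature green stage.

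Transcript levels are in TPM, which scales reads by gene length and by library total, from 2 to 5 libraries per subregion. Nothing in the labels ties the libraries of a subregion to separate sets of plants, so p-values measure the spread between libraries, which may be partly technical. Recovered reads ran from 186111 in ovCPT replicate 2 to 24669039 (median 7207350). In ovCPT replicate 2, 1 read of a member is worth several TPM, so its low values are coarse. The 5 gMCE libraries fell into 2 sets, with a correlation across genes of 0.64 to 0.67 between replicates 1 to 3 and replicates 4 and 5 against 0.89 to 0.94 within the sets. Replicates 4 and 5 were closer to the gPEN (0.80) than replicates 1 to 3 were (0.64 to 0.67), and the *TBL42* and *RGP2* contrasts of the globular filial seed and the *TBL42* ratio are also given without one or both of these sets. The storage protein genes *CRU1*, *CRU2*, and *CRU3* were summed with *CRB*, which the study names cruciferin B. The sum was 3408 to 12153 TPM in the mgCOT and mgROOT, and 678 to 10660 TPM in the maternal mature green libraries. In mgCPT replicate 1, mgCOT replicate 1, and mgCOT replicate 2 the tissue label named another tissue than the title, which was followed. A label of mgCZSC replicate 1 differed from its title or from the other replicates. The column of 1 of the 3 mgCZSC libraries had a number that matched no title, and it was used without a replicate number. Its correlation across genes was 0.68 with replicate 3 and 0.74 with replicate 1, against 0.82 between those libraries. The bulk values cannot tell fewer cells of a type apart from less RNA per cell.

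The 4 pairs had different territories. *RGP2* transcripts averaged above 10 TPM in 22 (An copy) and 23 (Cn copy) of the 26 subregions. In contrast, 95.6% of the *TBL42* transcripts, summed over subregion means, came from the gCZE, hCZE, gPEN, and gMCE, 79.8% of *GATL5* transcripts came from the hCZE, and 85.5% of *GXM3* transcripts came from the hISC and gISC. Over 8 genes and 46 contrasts between subregions or stages, 37 of 368 tests (10.1%) were higher and 63 (17.1%) were lower at an adjusted p of 0.05 (limma), where 6.59% and 11.5% of all tests of 99343 genes were higher and lower.

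**Figure D1:**
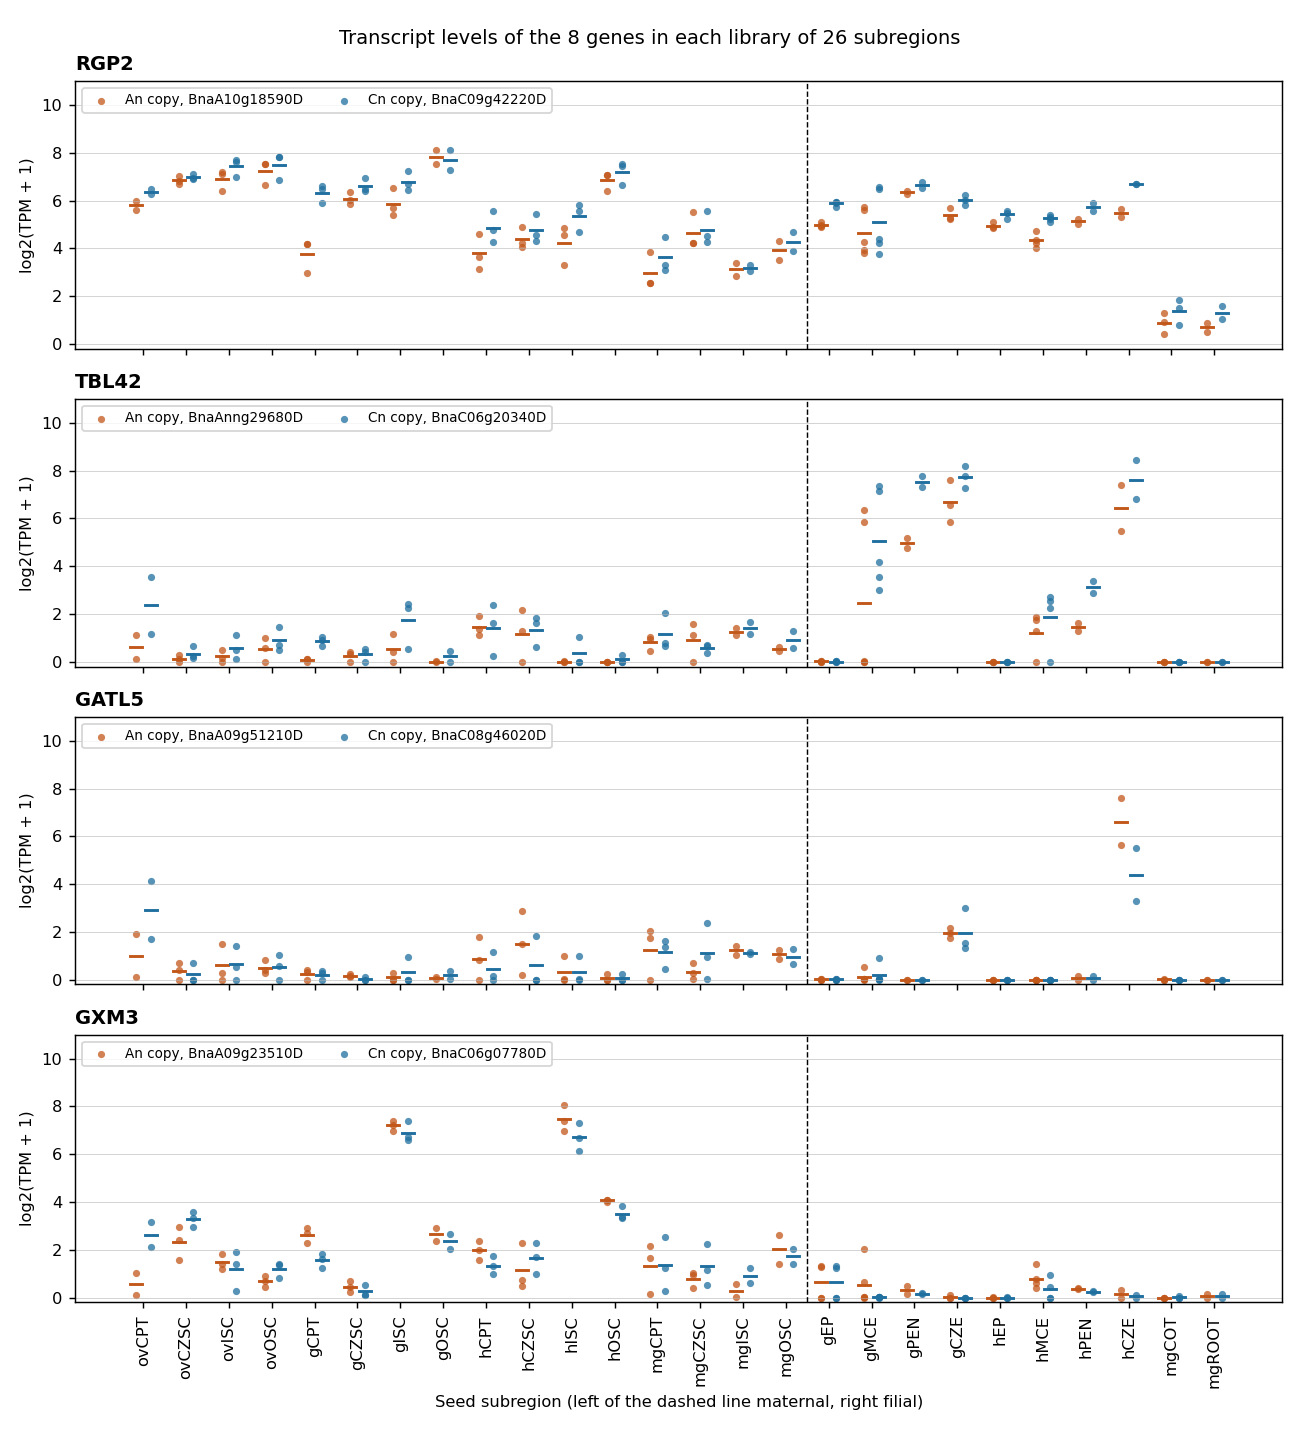
Transcript level of each copy in every library, as log2(TPM + 1), by seed subregion, with maternal subregions left and filial subregions right of the dashed line. Points are libraries (An copies orange, Cn copies blue) and bars are the mean of the plotted values. *RGP2* was present nearly everywhere apart from the mgCOT and mgROOT, *TBL42* stood high in the gMCE, gPEN, gCZE, and hCZE, *GATL5* in the hCZE, and *GXM3* in the gISC and hISC.

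*RGP2* encodes a reversibly glycosylated polypeptide, a family that in Arabidopsis includes the mutases that turn UDP-arabinopyranose into UDP-arabinofuranose, the donor for arabinan side chains. Its transcripts were most abundant in the OSC. In the gOSC the An copy measured 278 and 183 TPM and the Cn copy 275 and 153 TPM. In the ovOSC the An copy measured 181, 186, and 99.7 TPM and the Cn copy 222, 228, and 116 TPM, a range that overlapped the gOSC for both copies. The hOSC held 135, 82.7, and 133 TPM of the An copy and 185, 100.5, and 171 TPM of the Cn copy. Together with the ovISC and ovCZSC these 3 subregions carried 49.0% of the summed *RGP2* transcripts.

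Against the other maternal subregions of its stage, the OSC gave higher values of *RGP2* at the heart stage for both copies, by 2.71 ± 0.35 (SE) on the log2 scale for the An copy (adjusted p = 1.74e-08, limma) and 2.22 ± 0.37 for the Cn copy (adjusted p = 7.64e-06), in a contrast in which 19.3% of genes were called. At the globular stage the An copy alone passed the test (2.59 ± 0.41, adjusted p = 3.71e-06, 7.90% of genes called), and the difference between the copies is taken up below. The reference of this contrast includes the gCPT, where the An copy was low (6.76 to 17.3 TPM). These values of the OSC, like the others outside the rule for named contrasts, were chosen after they had been seen. By the mature green stage the OSC had fallen to 19.0 and 10.4 TPM of the An copy and 24.7 and 13.7 TPM of the Cn copy, a change from the hOSC of −2.93 ± 0.48 (adjusted p = 4.37e-06) and −2.93 ± 0.51 (adjusted p = 1.50e-05), with 31.2% of genes called. No library of the mgOSC reached the level of any hOSC library. An exact permutation test on 2 against 3 libraries cannot go below p = 0.1.

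In the ISC *RGP2* was highest in the ovule. The An copy measured 147, 136, and 83.9 TPM in the ovISC, 49.9, 91.7, and 40.5 TPM in the gISC, 27.5, 22.6, and 8.78 TPM in the hISC, and 6.11 and 9.59 TPM in the mgISC. The Cn copy measured 208, 196, and 126 TPM, then 104, 149, and 85.4 TPM, then 55.6, 45.8, and 24.8 TPM, and finally 7.23 and 8.76 TPM. Each stage thus lay below the one before in its mean, and the libraries overlapped between ovISC and gISC for both copies and between hISC and mgISC for the An copy. The change from the ovule to the globular stage differed between ISC and OSC by −1.63 ± 0.64 for the An copy (adjusted p = 0.272, limma) and −0.83 ± 0.69 for the Cn copy (adjusted p = 0.876), neither of which passed the test. The An copy fell from the gISC to the hISC (−1.63 ± 0.43, adjusted p = 0.0179, 2.86% of genes called), and the Cn copy from the hISC to the mgISC (−2.19 ± 0.51, adjusted p = 6.92e-04). Calls at different steps do not show that the copies fell at different stages. Every hISC library also held less of the Cn copy than every gISC library. The log2 ratio of the An to the Cn copy was −0.93 ± 0.14 in the gISC and −1.13 ± 0.14 in the hISC.

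Among the filial subregions the gPEN held the most of the An copy of *RGP2*, 76.4 and 83.9 TPM, with 90.9 and 109 TPM of the Cn copy. The An copy in the gPEN was above all 12 other globular filial libraries (mean 32.5 ± 13.2 TPM, SD) with a log2 difference of 1.33 ± 0.40 (adjusted p = 0.0309, limma, exact permutation p = 0.022, 6.23% of genes called). Without gMCE replicates 4 and 5 the difference was 1.56 and passed the test. The call was lost without gMCE replicates 1 to 3 (1.00, adjusted p = 0.0951) and without either gPEN library (adjusted p = 0.25 and 0.442). The hCZE gave the highest heart-stage filial values of the Cn copy, 102 and 103 TPM, against 38.1 and 49.1 TPM of the An copy.

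The lowest *RGP2* levels of the seed were in the mature embryo. In the mgCOT the An copy measured 0.859, 0.330, and 1.43 TPM and the Cn copy 1.84, 0.715, and 2.61 TPM. The mgROOT held 0.415 and 0.833 TPM of the An copy and 1.04 and 1.99 TPM of the Cn copy. The hEP had held 28.1 to 33.5 TPM and 36.3 to 46.5 TPM, so the groups lay far apart. From hEP to mgCOT the copies changed by −4.08 ± 0.43 (adjusted p = 1.27e-11) and −4.04 ± 0.46 (adjusted p = 1.18e-10) on the log2 scale, and from hEP to mgROOT by −4.26 ± 0.48 (adjusted p = 1.73e-10) and −4.11 ± 0.51 (adjusted p = 2.54e-09). All 4 kept their call under the other settings, but the size depended on the scaling, and for the mgCOT it ranged from −5.13 to −1.43 for the An copy and from −4.69 to −1.14 for the Cn copy, nearest to 0 with quantile normalization. Many genes moved in these contrasts, 29.4% and 26.6% of those tested. The summed *CRU* and *CRB* transcripts ran from 3408 to 12153 TPM in the mgCOT and from 4996 to 7606 TPM in the mgROOT. Their part in the result was not tested.

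*TBL42* belongs to the TRICHOME BIREFRINGENCE-LIKE family, which holds enzymes that add acetyl groups to wall polysaccharides. Its transcripts were those of the endosperm. In the gCZE the An copy measured 57.5, 92.7, and 193 TPM and the Cn copy 155, 289, and 216 TPM. The hCZE held 42.8 and 167 TPM of the An copy and 112 and 343 TPM of the Cn copy. The 2 hCZE libraries therefore differed several-fold, and their range covered that of the gCZE for the Cn copy and overlapped it for the An copy.

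The other endosperm subregions differed by stage. In the gPEN the An copy measured 26.1 and 35.4 TPM and the Cn copy 158 and 216 TPM, and in the hPEN the values were 1.43 and 2.11 TPM and 9.52 and 6.25 TPM. The Cn copy changed from gPEN to hPEN by −4.41 ± 0.82 (adjusted p = 5.73e-05) and the An copy by −3.51 ± 1.02 (adjusted p = 0.0165), with 8.56% of genes called. With 2 libraries on each side an exact permutation test cannot go below p = 0.333. The hMCE held up to 2.63 TPM of the An copy and 5.48 TPM of the Cn copy.

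In the embryo no *TBL42* read was recovered in any of 4 gEP, 3 hEP, 3 mgCOT, or 2 mgROOT libraries, for either copy. A count of 0 allows up to 3 reads, worth at most 4.83 TPM of the An copy and 3.01 TPM of the Cn copy in the shallowest gEP library and 0.104 TPM and 0.0648 TPM at most in the mgROOT. These limits cover counting error only. Both copies passed the test as lower in the gEP than in the other globular filial subregions (adjusted p = 6.02e-09 and 3.15e-17, 29.7% of genes called), with no fold given because the gEP had no read, and they did so without either set of gMCE libraries. In the maternal libraries *TBL42* stayed at or under 3.55 TPM of the An copy. The Cn copy stayed at or under 4.29 TPM apart from the 10.7 TPM of ovCPT replicate 2, which was 2 reads.

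Against the other globular filial subregions, *TBL42* was higher in the gCZE by 4.19 ± 0.68 for the An copy (adjusted p = 2.79e-06) and 3.55 ± 0.54 for the Cn copy (adjusted p = 8.92e-07), in a contrast in which 14.1% of genes were called. The libraries overlapped, since gMCE replicate 5 held more of the An copy (80.3 TPM) than the lowest gCZE library. For the Cn copy the gPEN (158 to 216 TPM) lay within the range of the gCZE (155 to 289 TPM). The exact permutation p was 0.00549 for the An copy and 0.0632 for the Cn copy. The gEP, without a read, is part of this reference and enlarges the lead, whose size depends on the added 1 TPM. Without gMCE replicates 1 to 3 the lead of the gCZE was 2.98 and 2.81, and without replicates 4 and 5 it was 5.01 and 4.04, each past the test. In the gPEN the Cn copy alone passed the test (3.27 ± 0.63, adjusted p = 2.00e-04, exact permutation p = 0.22), with 2.54 and 3.76 without the first and the second gMCE set, and without gPEN replicate 2 it did not (adjusted p = 0.0518). The gEP is part of the gPEN reference too. The log2 ratio of the copies in the gPEN did not differ from that reference by the test (−1.34 ± 0.51, adjusted p = 0.236, limma). A call of the Cn copy alone thus does not show that the lead of the gPEN differed between the copies. Against the other heart filial subregions, the hCZE was higher by 5.53 ± 0.80 for the An copy (adjusted p = 1.81e-07). For the Cn copy the lead was 5.95 ± 0.64 (adjusted p = 5.13e-11), with 14.9% of genes called in this contrast. Both hCZE libraries exceeded all 9 others, and the exact permutation p of 0.0182 was the smallest this design allows.

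The gMCE libraries split for *TBL42* as they did across genes. The Cn copy measured 17.2, 10.8, and 6.98 TPM in replicates 1 to 3 and 139 and 164 TPM in replicates 4 and 5. The An copy had no read in replicates 1 to 3 and measured 57.1 and 80.3 TPM in replicates 4 and 5. In reads, the An copy gave 0 of 67 reads in the first set (exact 95% interval 0 to 5.36%) and 453 of 1994 reads (22.7%, exact 95% interval 20.9 to 24.6) in the second. *RGP2* split too, with 26.8 to 37.6 TPM over both copies in replicates 1 to 3 and 139.6 to 141.9 TPM in replicates 4 and 5. The summed copies of the wall gene *GH9B9* measured 0.96 to 5.54 TPM in replicates 1 to 3, 29.2 to 32.1 TPM in replicates 4 and 5, and 1126 to 1305 TPM in the gPEN, and the part of neighbouring endosperm in the split was not tested.

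*GATL5* encodes a galacturonosyltransferase-like protein, which in Arabidopsis acts in the making of rhamnogalacturonan I, the pectin of seed coat mucilage. Here its transcripts stood out in the hCZE. The An copy measured 48.4 and 194 TPM there, from 579 and 2384 reads, and the Cn copy 8.74 and 44.3 TPM, from 104 and 540 reads. The gCZE held 2.40, 2.85, and 3.51 TPM of the An copy and 1.93, 1.52, and 7.06 TPM of the Cn copy. No gCZE library reached the lower hCZE library for either copy.

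Elsewhere in the filial seed *GATL5* was close to absent. No read of either copy was recovered in the gEP, gPEN, hEP, hMCE, or mgROOT, where 3 reads would be worth between 0.0795 and 4.68 TPM. The highest values in the remaining filial libraries outside the CZE were 0.427 TPM of the An copy and 0.857 TPM of the Cn copy, both in gMCE replicate 5. From gCZE to hCZE the An copy rose by 4.66 ± 0.49 on the log2(TPM + 1) scale (adjusted p = 3.75e-10) and the Cn copy by 2.43 ± 0.54 (adjusted p = 0.00281), in a contrast in which 2.68% of genes were called. Without hCZE replicate 2, the higher of the pair, the rise of the An copy was 3.66 (adjusted p = 2.12e-05).

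Against the other filial subregions of the heart stage, the hCZE was higher by 6.59 ± 0.42 for the An copy (adjusted p = 4.25e-19) and by 4.37 ± 0.47 for the Cn copy (adjusted p = 3.34e-11). All other libraries stood near 0, so the size of this difference depended on the value added before taking logs, and for the An copy it ranged from 4.36 to 9.72 over the alternatives. At the globular stage the gCZE was also above every other globular filial library, by 1.92 ± 0.36 (adjusted p = 4.35e-05) and 1.90 ± 0.39 (adjusted p = 2.31e-04), with an exact permutation p of 0.00275 for both copies, the smallest possible. The hMCE, without a read in all 4 libraries, passed as lower for both copies (6.04% of genes called), but its libraries did not stand apart from the hEP, which had no read either (exact permutation p = 0.164 for the An copy).

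*GATL5* was low in the seed coat and the CPT. Its highest maternal value of the An copy was 6.27 TPM in hCZSC replicate 3, where the other 2 hCZSC libraries held 0.134 and 1.79 TPM. In hCZSC replicate 3, 97.0% of all genes were above 1 TPM and 0.55% had no read, against 39.8% and 24.3% in replicate 1. The Cn copy reached 16.6 TPM in ovCPT replicate 2, from 2 reads, and 4.16 TPM in an mgCZSC library. The Cn copy passed the test as higher in the ovCPT than in the other ovule subregions (2.44 ± 0.46, adjusted p = 2.14e-05, 41.1% of genes called) and as falling by 2.71 ± 0.54 from ovCPT to gCPT (adjusted p = 3.92e-05, 44.5% of genes called). The first call was lost without ovCPT replicate 2 (1.21, adjusted p = 0.102), the second without the 2 shallowest libraries (−1.48, adjusted p = 0.0514), and both were lost when libraries were weighted by their quality (adjusted p = 0.407 and 0.219).

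**Figure D2:**
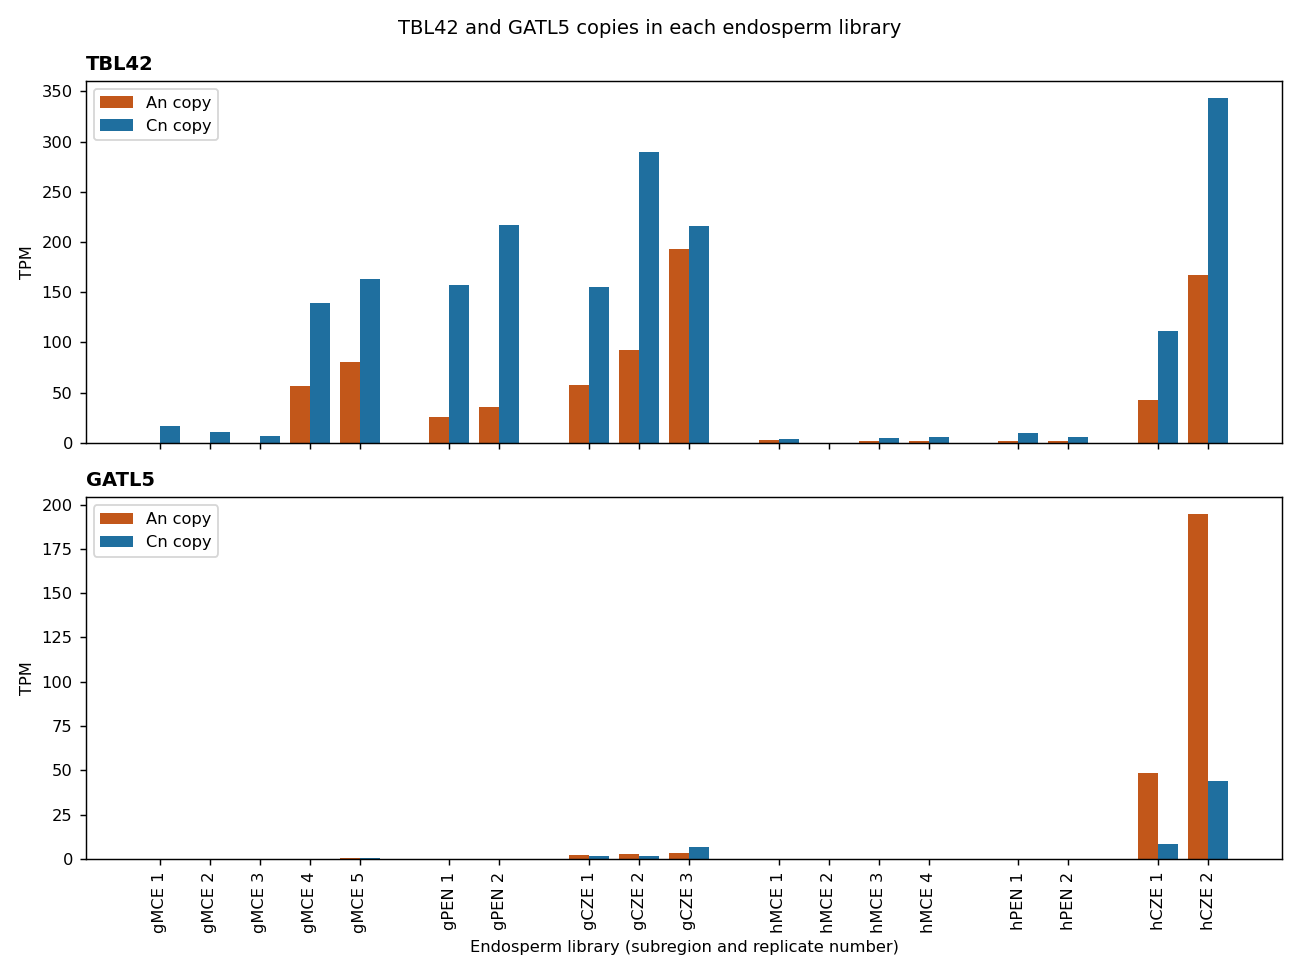
TPM of the *TBL42* and *GATL5* copies in each of the 18 endosperm libraries, An copies orange and Cn copies blue. *TBL42* was high in gMCE replicates 4 and 5, the gPEN, the gCZE, and the hCZE, with the Cn copy above the An copy, whereas *GATL5* was high in the 2 hCZE libraries only, with the An copy above the Cn copy.

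*GXM3* is named for glucuronoxylan methyltransferases, which in Arabidopsis add methyl groups to the glucuronic acid side groups of xylan. Its transcripts stood high in the ISC at the globular and heart stages, days 7 and 10, and low at days 0 and 28. The An copy measured 126, 167, and 151 TPM in the gISC and 168, 267, and 126 TPM in the hISC. The Cn copy measured 96.0, 165, and 104 TPM in the gISC and 102, 156, and 69.5 TPM in the hISC. These were preceded by 1.27 to 2.54 TPM and 0.210 to 2.71 TPM in the ovISC, and followed by at most 0.503 TPM and 1.33 TPM in the mgISC.

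The rise and the fall were both far larger than the spread between libraries. From ovISC to gISC the copies rose by 5.73 ± 0.43 (adjusted p = 1.00e-15) and 5.70 ± 0.41 (adjusted p = 1.34e-16) on the log2 scale, with 12.7% of genes called. From hISC to mgISC they changed by −7.19 ± 0.48 (adjusted p = 1.11e-17) and −5.79 ± 0.45 (adjusted p = 2.62e-15), with 38.2% of genes called. Between gISC and hISC neither copy passed the test. Against the other globular maternal subregions, the gISC was higher by 5.29 ± 0.36 and 5.50 ± 0.34 (adjusted p = 1.25e-17 and 2.32e-19, 6.40% of genes called), and all 3 libraries exceeded all 8 others, for which the exact permutation p of 0.00606 is the smallest possible. At the heart stage the hISC was higher by 5.08 ± 0.35 and 4.53 ± 0.33 (adjusted p = 3.16e-17 and 2.39e-16, 9.63% of genes called).

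The neighbouring OSC held far less *GXM3*, but followed a like course. The An copy measured 0.606, 0.897, and 0.379 TPM in the ovOSC, 6.56 and 4.21 TPM in the gOSC, 15.1, 16.2, and 16.0 TPM in the hOSC, and 5.17 and 1.69 TPM in the mgOSC. It rose from ovOSC to gOSC (1.96 ± 0.48, adjusted p = 0.00588, 6.78% of genes called) and both copies fell from hOSC to mgOSC, with changes of −2.04 ± 0.48 (adjusted p = 0.00113) and −1.78 ± 0.45 (adjusted p = 0.0025). The rise from ovule to globular stage was larger in the ISC than in the OSC by 3.77 ± 0.65 for the An copy (adjusted p = 7.97e-05) and 4.53 ± 0.61 for the Cn copy (adjusted p = 5.92e-07), a difference called for 2.32% of genes. With 0.1 TPM added in place of 1 TPM the An copy lost this call (3.36, adjusted p = 0.392). The summed *CEP1* copies, used here as a marker of inner maternal tissue, measured 627 to 897 TPM in the gISC and 3890 to 6764 TPM in the hISC, against 3.21 to 3.57 TPM in the gOSC and 29.3 to 232 TPM in the hOSC, and the part of inner cells in the OSC values was not tested. *CEP1* was also high in the gCPT (502 to 614 TPM), where *GXM3* held 3.85 to 6.57 TPM of the An copy and 1.38 to 2.51 TPM of the Cn copy.

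Before pollination *GXM3* was instead highest in the ovCZSC, at 1.98, 6.86, and 4.27 TPM of the An copy and 6.65, 11.1, and 8.98 TPM of the Cn copy. Both copies were higher there than in the other ovule subregions, by 1.40 ± 0.36 (adjusted p = 0.00372) and 1.61 ± 0.34 (adjusted p = 3.77e-04), where 21.6% of genes were called. They then fell to the gCZSC, with changes of −1.86 ± 0.43 (adjusted p = 0.00111) and −3.03 ± 0.41 (adjusted p = 5.18e-08, 16.2% of genes called), where libraries held at most 0.632 TPM. In the filial libraries *GXM3* reached 3.04 TPM of the An copy, from 4 reads, and 1.48 TPM of the Cn copy, from 1 read, and 15 and 19 of the 30 libraries had no read.

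**Figure D3:**
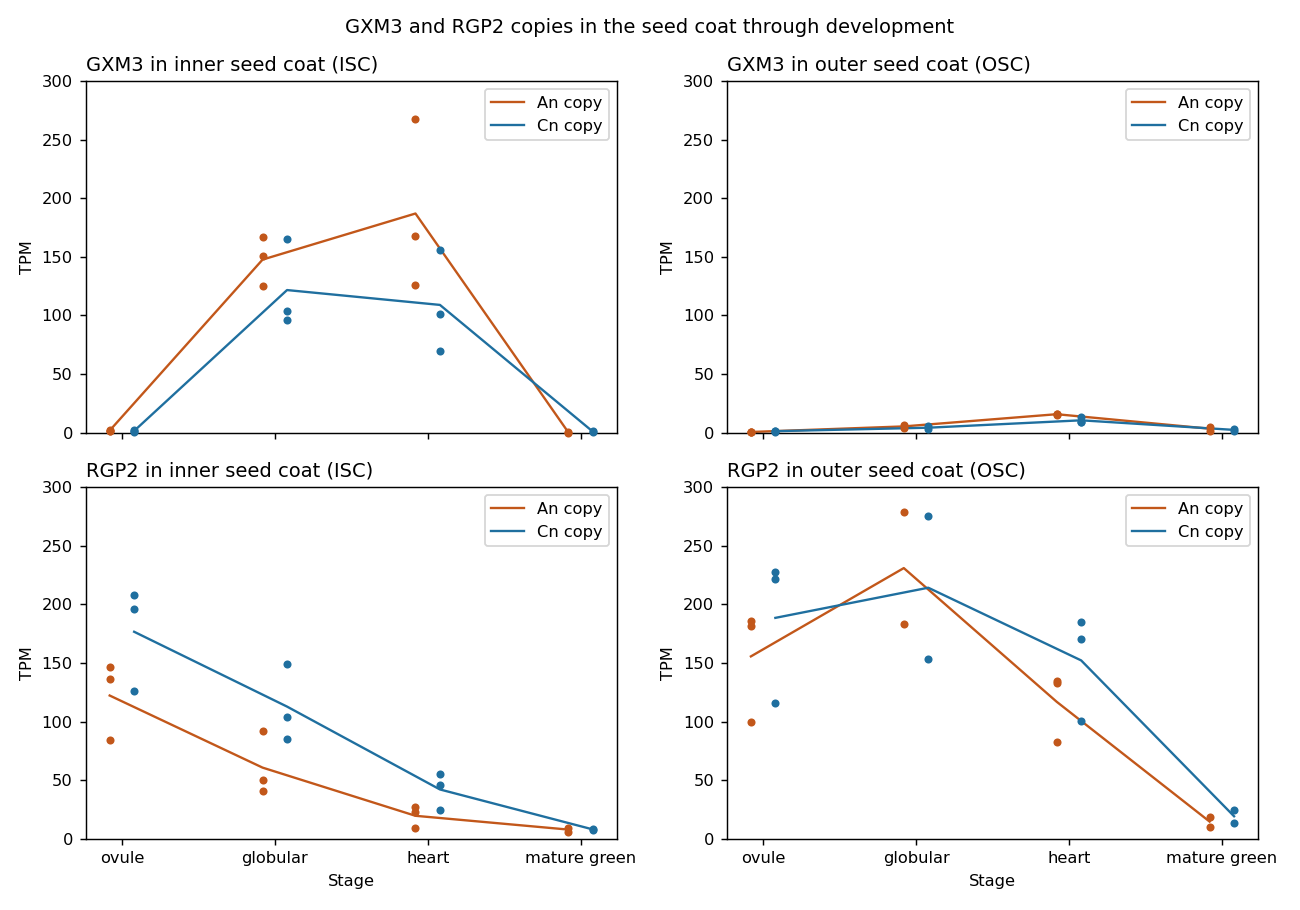
TPM of the *GXM3* (top) and *RGP2* (bottom) copies in the inner and outer seed coat at the 4 stages, on a common scale. Points are libraries and lines join the means, An copies orange and Cn copies blue. *GXM3* rose and fell within the ISC between 69.5 and 267 TPM at the globular and heart stages, while *RGP2* was already high in the ovule and was lowest at the mature green stage.

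The balance of the copies was measured in each library as log2((An TPM + 1)/(Cn TPM + 1)), below 0 where the Cn copy was higher. It was tested where a pair averaged at least 2 TPM, in a fit over 3890 pairs that included those the study lists. That part of the list is not a random sample of pairs, and in it 30.2% of tests of a subregion were called toward An and 4.58% toward Cn. Only uniquely mapped reads were counted, so reads that both copies share are missing from both. The 4 pairs gave 4 calls toward An and 29 toward Cn. *RGP2* gave 19 calls toward Cn and 0 toward An among 26 subregions, *TBL42* 7 toward Cn among 12, *GATL5* 2 toward An and 1 toward Cn among 7, and *GXM3* 2 toward each copy among 13.

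For *RGP2* the Cn copy was the more abundant in 68 of 72 libraries with at least 2 TPM. The mean ratio was −0.66 ± 0.05 over the filial (adjusted p = 6.35e-19) and −0.60 ± 0.04 over the maternal subregions (adjusted p = 2.66e-21), while 9.63% and 13.6% of pairs were called toward Cn in these means. The largest imbalance was in the gCPT, where the An copy measured 6.76, 17.3, and 17.2 TPM and the Cn copy 58.2, 95.5, and 88.0 TPM. The ratio there was −2.54 ± 0.14 (adjusted p = 3.25e-21), lower than in the other globular maternal subregions by 2.10 ± 0.16 (adjusted p = 3.47e-15, 7.07% of pairs called). In the gOSC the ratio was 0.14 ± 0.17 (adjusted p = 0.565), above the other globular maternal subregions by 1.47 ± 0.18 (adjusted p = 1.41e-07, 2.54% of pairs called). The low gCPT is part of that reference and enlarges the difference. The ratio was −0.53 ± 0.14 in the gCZSC and −0.93 ± 0.14 in the gISC. Against a reference that also held the gCPT, the gCZSC was higher too, by 0.58 ± 0.16 (adjusted p = 0.037).

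In levels, the low ratio of the gCPT came with a low An copy. Against the other globular maternal subregions the An copy was lower in the gCPT by 2.81 ± 0.36 on the log2 scale (adjusted p = 9.38e-09, 16.0% of genes called), and the Cn copy did not pass the test. The An copy had fallen from 62.3 and 47.8 TPM in the ovCPT (−2.02 ± 0.48, adjusted p = 4.14e-04, 44.5% of genes called), where the Cn copy measured 76.2 and 87.2 TPM. The median change of all genes in that contrast was −0.72, and 1 read of the An copy was worth 4.77 TPM in ovCPT replicate 2. The hCPT ratio was −1.08 ± 0.14 (adjusted p = 5.99e-09), with 7.74 to 23.3 TPM of the An copy and 18.3 to 46.5 TPM of the Cn copy. Among filial subregions the ratio was lowest in the hCZE (−1.22 ± 0.17, adjusted p = 3.99e-08), and it did not pass the test in the gPEN (−0.31 ± 0.17, adjusted p = 0.147).

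For *TBL42* the Cn copy was higher in 17 of 17 filial libraries that reached 2 TPM and in 27 of 30 of all such libraries. The filial mean ratio was −1.63 ± 0.17 over 6 subregions (adjusted p = 2.09e-12), −1.38 without gMCE replicates 1 to 3, and −1.79 without replicates 4 and 5. By subregion it was −2.60 ± 0.30 in the gMCE (adjusted p = 6.14e-10), −2.56 ± 0.47 in the gPEN (adjusted p = 1.95e-05), −1.67 ± 0.47 in the hPEN (adjusted p = 0.00437), −1.20 ± 0.47 in the hCZE (adjusted p = 0.0434), and −1.07 ± 0.39 in the gCZE (adjusted p = 0.0258), and it did not pass the test in the hMCE (−0.66 ± 0.34, adjusted p = 0.124). The gMCE value joined the 2 sets of libraries, and was −1.15 ± 0.40 (adjusted p = 0.0204) without replicates 1 to 3 and −3.57 ± 0.33 (adjusted p = 1.27e-12) without replicates 4 and 5. In replicates 1 to 3, with no read of the An copy, its size depends on the added 1 TPM. Within the gCZE the 3 libraries were uneven, with 193 TPM of the An copy against 216 TPM of the Cn copy in replicate 3. The gMCE ratio was lower than in the other globular filial subregions by 1.39 ± 0.38 (adjusted p = 0.00542, with 778 of 3890 pairs called). Without gMCE replicates 1 to 3, however, the difference was 0.07 (adjusted p = 1). The gEP, which had no read of either copy, is part of that reference, where its ratio rests on the added 1 TPM. It enlarges the 1.39, and the gMCE ratio of −2.60 stood close to the −2.56 of the gPEN. A read of the An copy was worth 1.61 times the TPM of a read of the Cn copy, its counted length being 0.62 times as long, so the Cn copy led by more in reads than in TPM.

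For *GATL5* the order was the other way round in the hCZE. The ratio there was 2.23 ± 0.40 (adjusted p = 1.50e-05), with the An copy higher in both libraries, and it was above the other heart filial subregions by 2.23 ± 0.45 (adjusted p = 5.85e-04, 5.91% of pairs called), although those had next to no read of either copy. Without hCZE replicate 1 this difference was 2.11 (adjusted p = 0.0512). In the gCZE the ratio was −0.00 ± 0.33 (adjusted p = 0.995). The filial mean over these 2 subregions was 1.11 ± 0.26 (adjusted p = 1.68e-04), and 65.3% of pairs were called toward An in the filial mean. In the maternal subregions the mean was −0.14 ± 0.17 over 5 subregions (adjusted p = 0.484), and its sign rested on ovCPT replicate 2, without which it was 0.29 (adjusted p = 0.0473). The ovCPT ratio of −1.90 ± 0.40 (adjusted p = 1.67e-04) rested on the 2 reads of the Cn copy in that library. The hCZSC ratio was 0.90 ± 0.33 (adjusted p = 0.029), with the highest values in replicate 3, where 97.0% of all genes were above 1 TPM.

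For *GXM3* the ratio was 0.31 ± 0.27 in the gISC (adjusted p = 0.408) and 0.78 ± 0.27 in the hISC (adjusted p = 0.0214), where the An copy was higher in all 3 libraries. It was 1.08 ± 0.27 in the gCPT (adjusted p = 0.0014), −0.97 ± 0.27 in the ovCZSC (adjusted p = 0.0041), and −2.07 ± 0.33 in the ovCPT (adjusted p = 1.79e-06), where 1 library held a single read of the Cn copy and 0 of the An copy. Over 13 maternal subregions the mean was 0.01 ± 0.08 (adjusted p = 0.906), and the An copy was higher in 20 of 34 maternal libraries with at least 2 TPM over both copies.

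**Figure D4:**
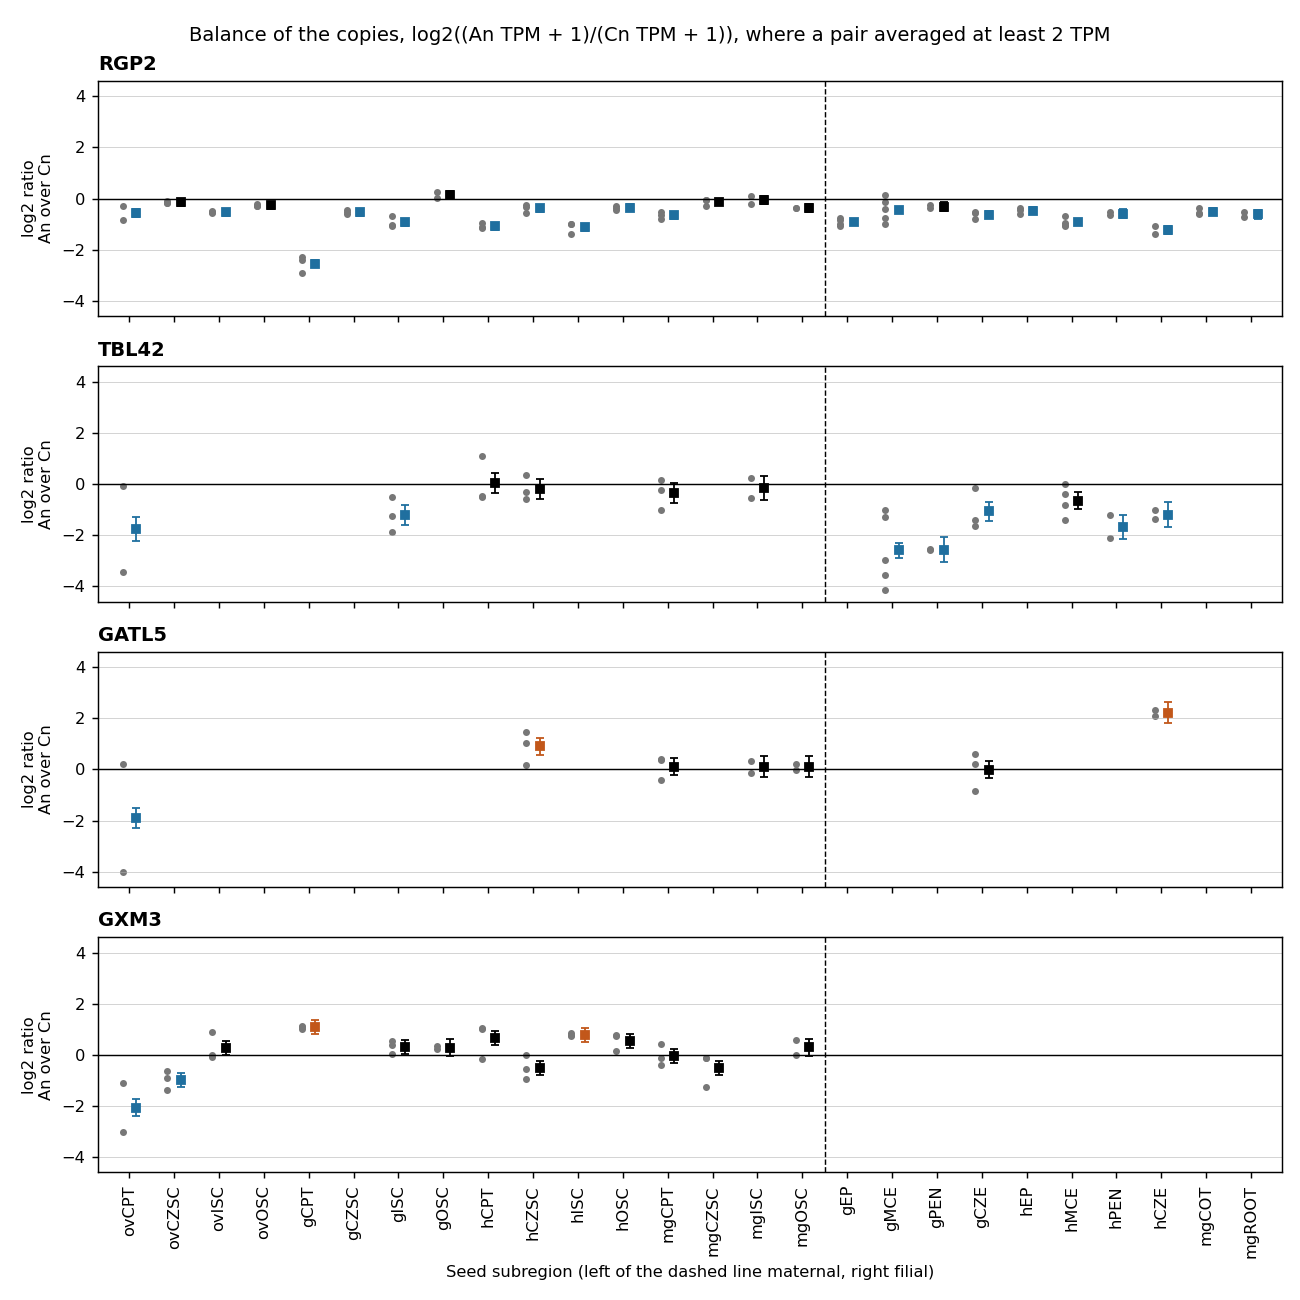
Balance of the copies as log2((An TPM + 1)/(Cn TPM + 1)) by subregion, above 0 where the An copy was higher. Grey points are libraries and squares are fitted means with their SE, orange where called toward An, blue where called toward Cn, and black where neither, and subregions in which a pair averaged under 2 TPM are left empty. *RGP2* and *TBL42* lay mostly below 0 with the gCPT at −2.54 for *RGP2*, while *GATL5* stood at 2.23 in the hCZE.

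The copies of a pair had like profiles over the subregions. Across 26 subregion means of log2(TPM + 1), which share libraries and depth, the correlation between the copies was 0.96 for *RGP2*, 0.97 for *TBL42*, 0.87 for *GATL5*, and 0.95 for *GXM3*. For *GXM3* each copy was the best match of the other among 56872 genes, whereas for *GATL5* the homoeolog ranked 298 and 187. It ranked 2 and 21 for *RGP2* and 22 and 23 for *TBL42*. The profile of the *GATL5* Cn copy includes an ovCPT mean of 9.43 TPM that leans on 16.6 TPM in the shallow ovCPT replicate 2. The ranks were not computed without that library. Apart from homoeologs, the profiles most like *RGP2* were those of BnaC02g08990D (0.96 with the An and 0.97 with the Cn copy), BnaA09g23290D (0.95), and BnaA01g35660D (0.97), and those most like *TBL42* were BnaC09g34450D (0.99) and BnaA01g17260D (0.98) for the An copy and BnaA02g14090D (0.99) and BnaC02g10500D (0.98) for the Cn copy. The An copy of *GATL5* was nearest to BnaA07g12100D and BnaAnng41880D (both 0.97) and the Cn copy to BnaA07g08230D (0.98) and BnaC03g30090D (0.97), all 4 highest in the hCZE. Those nearest to *GXM3* were BnaCnng57120D (0.94), a copy of the sugar transporter gene *SWEET1*, and BnaA01g15710D (0.93) for the An copy, and BnaC04g46310D and BnaA07g29050D (both 0.94) for the Cn copy.

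Other wall genes were read from lists built from the gene ontology tables of the study, which are incomplete and rest on the same libraries. In the hOSC, where *RGP2* was high, 8 of 10 pectin synthesis genes were higher than in the other heart maternal subregions and 0 were lower, with a median log2 difference of 1.25 against −0.29 over all genes, of which 9966 were higher and 9243 lower among 99343. The largest were BnaA03g37710D (2.52 ± 0.30, adjusted p = 1.41e-09) and BnaC03g74220D (2.45 ± 0.27, adjusted p = 2.49e-10). Of 9 cellulose synthesis genes 4 were higher and 1 lower, and of 40 polygalacturonase genes, whose products cut pectin, 0 were higher and 8 lower. Of 4 genes of the upstream steps of UDP-arabinose synthesis, 1 was higher and 2 were lower.

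In the gCPT, where the An copy of *RGP2* was low, 2 of those 4 UDP-arabinose genes were higher, both copies of *UGE1*, which encodes a UDP-glucose epimerase. BnaA08g24600D was higher by 5.57 ± 0.50 (adjusted p = 1.32e-13) and BnaC08g15730D by 4.97 ± 0.40 (adjusted p = 2.90e-15). Pectin synthesis genes gave 0 higher and 4 lower of 10 there, where 6.96% of all genes were higher and 9.08% lower. In the gISC, where *GXM3* was high, 0 of 6 xylan synthesis genes passed the limma test in either direction, with 1 at an unadjusted p under 0.05 (median 0.46 against 0.02 over all genes), and in the hISC 1 of 6 was higher (BnaCnng24560D, 1.09 ± 0.32, adjusted p = 0.0189). Pectin synthesis genes gave 4 of 10 higher and 0 lower in the gISC. Of all genes, 3.38% were higher and 3.02% lower in the gISC, and 3.25% and 6.39% in the hISC.

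In the CZE, *TBL42* was high at the globular and heart stages and *GATL5* at the heart stage. Pectin synthesis genes gave 0 higher and 7 lower of 10 there at the globular stage and 0 higher and 2 lower at the heart stage. Of 99343 genes, 4966 were higher and 9010 lower in the gCZE, and 6.93% were higher and 7.94% lower in the hCZE. Polygalacturonase genes gave 4 higher and 0 lower of 40 in the gCZE and 3 higher and 7 lower in the hCZE, led by BnaC04g36920D (4.88 ± 0.30, adjusted p = 6.20e-20) in the gCZE and BnaC08g20620D (4.56 ± 0.45, adjusted p = 2.11e-12) in the hCZE. From hEP to mgCOT, where *RGP2* fell, all 10 pectin synthesis genes, 4 of 6 xylan synthesis genes, and 4 of 9 cellulose synthesis genes were lower and 0 higher, with medians of −1.50, −1.52, and −1.10 against −0.10 over all genes, of which 28.8% were lower and 0.562% higher. In the hEP libraries 50.0% to 58.8% of genes had no read, so the median over all genes is no baseline for expressed genes. With quantile normalization 7162 of all genes were higher and 9105 lower in this contrast, and the list counts are given without it.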

How the data were processed

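RNA-seq of 74 LMD libraries of *B. napus* cv. Topas was used. The deposited values were TPM. To make them, the authors ran fastp for trimming, HISAT2 for alignment to the Darmor-bzh genome, and featureCounts for unique reads, followed by scaling for length and depth, with versions not given in the sources used here. No value is 0, since each gene carries 0.01 added reads, and the steps between low values gave the reads on 100860 genes (99.8%). These hold 80.6% to 98.7% of the TPM, so the read totals are lower limits of depth. Whole-read agreement for the members was within 3.1e-05 reads. Intervals and limits from reads cover counting error only.

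Libraries were grouped by title. Contrasts were tested with limma (version 3.58.1, R 4.3.3, with a variance trend) on log2(TPM + 1), in a single fit of 26 subregion means over 99343 genes that averaged at least 1 TPM in a subregion, with Benjamini-Hochberg adjustment over all genes in each of 46 contrasts and 6 differences of contrasts. A subregion was compared with the mean of the others of its stage. Fold changes of low genes are understated by the added 1 TPM. Ratios of copies were fitted in the same way over 3890 pairs, of which 4 are described, 41 were other pairs named by the study, and 3845 came from the part of its pair lists to hand. Exact permutation tests used library TPM, two-sided (scipy 1.17.1). Both tests across genes were checked on simulated data.

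For each gene the text names the called contrasts with the 3 largest changes and any called gPEN, gCZE, or hCZE contrast, the 2 genes of most similar profile among those reaching 5 TPM, and the 2 largest changes of a list. Other contrasts and the differences of ratios were chosen after their values had been seen. The members and lists were chosen with earlier results of these data known. Alternatives were pseudocounts, filters, rescaling without the 100 top genes, quantile normalization, library weights, a replicate block, separate fits, and leaving out libraries. Without gMCE replicates 1 to 3, without 4 and 5, and without the 8 libraries in which fewer than 5% of genes had no read were alternatives added after seeing the data.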

Additional observations from a re-analysis of the deposited data

Results flagged for a closer look

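The Cn copy of *TBL42* in hMCE replicate 2 lay apart from the other 3 hMCE libraries, at no read against 3.75, 4.89, and 5.48 TPM. The gap took up 0.833 of the range, just past the limit of Dixon's test for 4 samples. Chance places about 1 group in 20 past this limit.

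Several contrasts differed between stages or tissues by a test of the difference itself (limma, log2 scale). The lead of the gCZE over the gMCE was smaller than that of the hCZE over the hMCE by 3.05 for the Cn copy of *TBL42* (−3.05, adjusted p = 0.0331), by 4.77 for the An copy of *GATL5* (−4.77, adjusted p = 6.42e-08), and by 2.61 for its Cn copy (−2.61, adjusted p = 0.00797), where 6.04% of genes were called. For *TBL42* the value without gMCE replicates 4 and 5 was −1.58 (adjusted p = 0.191), and the call was also lost without gMCE replicate 4 or 5, gCZE replicate 1 or 3, hMCE replicate 2, or hCZE replicate 2 (−3.06 to −2.24, adjusted p = 0.0658 to 0.39). The call of the Cn copy of *GATL5* was lost without hCZE replicate 2 (−1.50, adjusted p = 0.418). The lead of the CZE over the PEN differed between the globular and heart stages by −4.29 for the Cn copy of *TBL42* (adjusted p = 0.0106) and −4.58 for the An copy of *GATL5* (adjusted p = 1.15e-05), with 4.35% of genes called. The first was lost without gPEN replicate 2, hPEN replicate 2, or hCZE replicate 2 (−4.06 to −3.48, adjusted p = 0.0679 to 0.144).

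From the ovule to the globular stage, *GXM3* moved by 3.77 more in the ISC than in the OSC for the An copy (adjusted p = 7.97e-05) and by 4.53 more for the Cn copy (adjusted p = 5.92e-07). With 0.1 TPM added in place of 1 TPM, of all these differences that of *GATL5* An for the gCZE and gMCE and that of *GXM3* Cn remained called, and the others had an adjusted p of 0.111 to 0.392.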

How the results depend on the processing

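Of the counts and mean ratios that answer a comparison, 107 of 114 values under other settings and 35 of 36 under the settings added after seeing the data kept their direction and their side of the limit. For named genes, 426 of 441 values under other settings did so, 15 lost their call, and 0 turned direction, quantile normalization included, although the median change of all genes without it was −0.72 in the contrast of gCPT with ovCPT. Calls over the 46 contrasts ranged from 32 to 43 higher and 48 to 72 lower over the other settings, and from 35 to 40 higher and 59 to 67 lower when 1 library was left out. Calls of a difference between stages or tissues numbered 7, but 2 with a pseudocount of 0.1 TPM, 16 with library weights, and 4 without hCZE replicate 2 (4 to 8 with 1 library left out). With 0.1 TPM added to both copies, ratio calls toward An went from 4 to 2, and the *GATL5* filial mean was 1.18 (adjusted p = 0.0611). The *GATL5* maternal mean of −0.14 became 0.29 (adjusted p = 0.0493) without the 2 shallowest libraries, −1.90 where a pair had to average 5 TPM, and −0.87 without the libraries with few genes at 0 reads, and ranged from −0.56 to 0.29 with 1 library left out. The *TBL42* maternal mean of −0.60 was −0.32 without the 2 shallowest libraries (adjusted p = 0.0569) and ranged from −0.88 to −0.32 with 1 left out, the latter without ovCPT replicate 2. The *TBL42* ratio difference of the gMCE was 0.0651 without gMCE replicates 1 to 3. The cause of these changes was not tested beyond the libraries named.

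Replicate numbers did not pair the libraries, with mean correlations of deviations of 0.0018, −6e-04, and −0.0064 for the 3 numbers. With the replicate number as a block, 41 contrasts were higher and 69 lower, 10 differences were called, ratio calls stayed at 4 and 29, and the mean ratios ranged from −1.75 (*TBL42*, filial) to 1.13 (*GATL5*, filial).

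For copies without a read, 3 reads were worth 23.5 to 25.6 TPM in ovCPT replicate 2 and 4.20 to 4.61 TPM in gMCE replicate 1, so lower levels there rest on a few reads or none.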
